A study of Mus musculus with 6 samples.

Results

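Galectins are soluble lectins that bind galactose-containing sugars on glycoproteins, and Lgals3bp encodes a secreted, heavily glycosylated protein that several of them bind. The genes described are Lgals3bp and the galectins Lgals1, Lgals3, Lgals4, Lgals8 and Lgals9, which are 6 of the 16583 genes measured on 6 arrays. They were chosen by gene symbol, each had 1 transcript cluster (the array's unit for 1 gene) annotated with that symbol alone, and all 6 passed into the fit because no filter on low values was used. Lgals3bp was already known to lie among the genes lowered with the smallest p in this same contrast, and the galectins were added as its partners. The differences of the 6 genes are therefore a description, and no test of a single member is used to support them.

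The cells were Neuro2a, a mouse neuroblastoma line, and all groups share this line and its serum-containing medium. The knockdown cells (labelled USFKD, 3 arrays) carried plasmids expressing artificial microRNAs against USF1 and USF2, and the other cells (labelled Control, 3 arrays) carried the empty vector. Both were introduced by lipofection; the share of cells that took up a vector, the vector's promoter and the time to harvest are not stated in the labels, and RNA was taken from the whole culture. In bulk RNA, fewer cells of a type and less RNA per cell cannot be told apart. The titles number biological replicates but name no separate cultures. A p-value here therefore reflects only the variation among these 6 arrays, part or all of which may be technical.

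The transcription factors USF1 and USF2 dimerise through a leucine zipper and bind the E-box of promoters, with CACGTG as the preferred core. Galectins are made in the cytosol, leave the cell without a signal peptide, and cross-link glycoproteins at the cell surface. Some also act inside the cell, where they bind sugars exposed on the inner face of damaged lysosomes. Lgals3bp follows the classical secretory route and is known, with Lgals9, as an interferon-induced gene.

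The deposited values are log2 signals centred on each cluster's median. Arrays can be set against each other for a gene, whereas absolute levels are lost and the members cannot be ranked by abundance. The rounding of the deposited numbers places a cluster at 4 to 8 (the dimmer class) or at 8 to 16 (the brighter class) before that centring. In the brighter class lay 44.1% of all genes and 3 of the 6 members, Lgals3bp, Lgals1 and Lgals8. Of the markers of sympathetic neuroblastoma, 13 of 17 measured were in the brighter class, and Th, Dbh, Nefl and Nefm were not. Of the macrophage markers 0 of 9 were in that class, of the fibroblast markers 1 of 8 (Acta2) and of the epithelial markers 1 of 10 (Cdh1).

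Knockdown array 2 varied most. The standard deviation of its clusters was 0.16, beside 0.053 and 0.078 on knockdown arrays 1 and 3, against 0.068 to 0.071 on the empty vector arrays. On knockdown array 2 the dimmer class had a median of 0.071 and the brighter class one of -0.028. Genes of the dimmer class thus read high on that array as a class, which touches Lgals3, Lgals4 and Lgals9 below. Both targets of the RNA interference were lower in the knockdown, Usf1 at 0.682-fold (95% interval 0.612 to 0.761) and Usf2 at 0.770-fold (0.702 to 0.845), with adjusted p of 0.320 and 0.348 over all genes in limma.

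Lgals3bp was lower on every knockdown array than on every empty vector array, while the 5 galectins differed by at most 1.06-fold between the groups. The relative log2 signal of Lgals3bp (cluster 10393573) was -0.19, -0.26 and -0.12 on knockdown arrays 1, 2 and 3, against 0.12, 0.27 and 0.28 on empty vector arrays 1, 2 and 3. Its lowest value was on knockdown array 2, and the nearest pair of arrays across the groups, knockdown array 3 and empty vector array 1, lay 0.23 apart. The means were -0.19 ± 0.07 (SD, n = 3) with knockdown and 0.22 ± 0.09 (SD, n = 3) with empty vector. The change was -0.41 ± 0.06 (SE) on the log2 scale, or 0.753-fold with a 95% interval of 0.682 to 0.831. In absolute size it was number 7 of the 16583 changes, between those of Usf1 (number 2) and Usf2 (number 11). Since Lgals3bp was picked by this contrast, a high rank was likely from the start and the size may be overstated. With 1 array left out in turn, the change of Lgals3bp lay between -0.46 and -0.37.

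**Figure D1:**
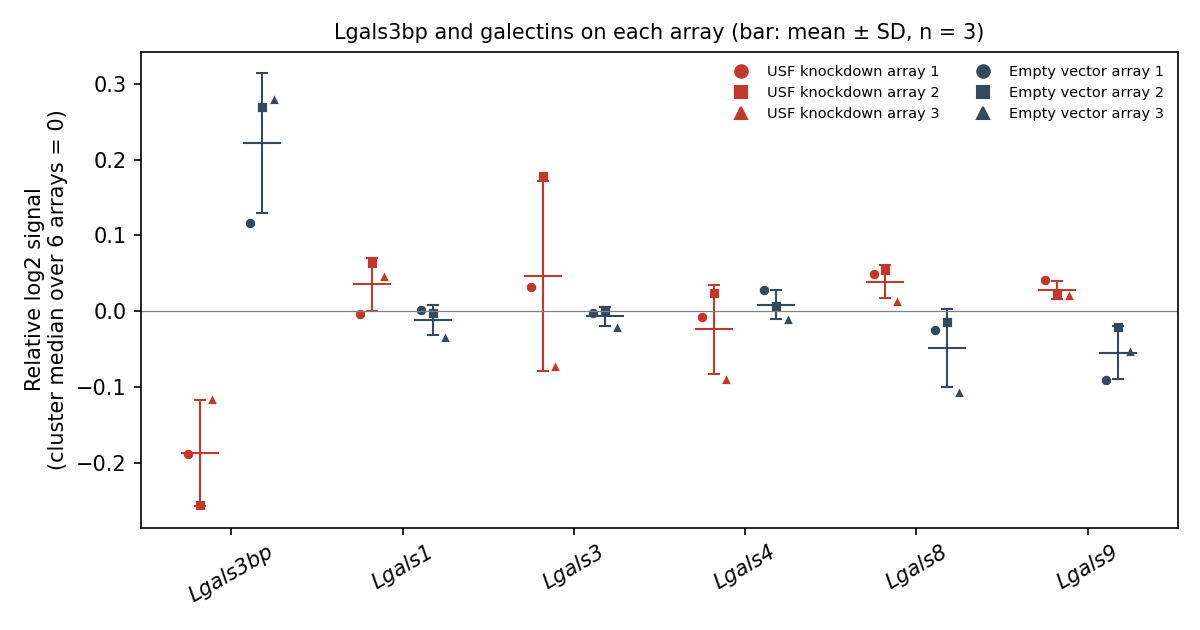
Relative log2 signal (vertical axis, 0 is the cluster's median over 6 arrays) of the 6 genes on each of the 3 knockdown arrays (red, left) and 3 empty vector arrays (blue, right), with symbols for the array number and bars for the mean ± SD. Lgals3bp has the widest gap between the groups, 0.23, and Lgals3 has its highest value, 0.18, on knockdown array 2.

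Over the whole table, the limma test with Benjamini-Hochberg adjustment called 1 gene at an adjusted p under 0.05, which is 0.00603% of those tested, and 0 of the 6 members. At an unadjusted p under 0.05 limma counted 1 of the 6 members, where it counted 4.25% of all genes. That member, Lgals3bp, was lower (2.65% of all genes), and 0 members were higher (1.6% of all genes). The adjusted p of Lgals3bp was 0.348 over all genes. The groups did not overlap for 3 of the 6 members, 2 with knockdown above (Lgals8 and Lgals9) and 1 with knockdown below (Lgals3bp). Of all genes, 10.3% did not overlap, 4.33% with knockdown above and 5.95% below. Since this contrast was used in choosing the members, nothing is read from these counts.

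The promoters of the 3 members whose groups did not overlap are shown because the knocked-down factors bind E-boxes. Each is the 250 bases before the annotated transcription start, 5′ to 3′ on the gene's strand, from RefSeq on GRCm38.p6, and capitals mark each match to the general E-box CANNTG. Lgals3bp is read from chr11:118401960-118402209 (minus strand), Lgals9 from chr11:78984925-78985174 (minus strand) and Lgals8 from chr13:12461739-12461988 (minus strand).
Lgals3bp: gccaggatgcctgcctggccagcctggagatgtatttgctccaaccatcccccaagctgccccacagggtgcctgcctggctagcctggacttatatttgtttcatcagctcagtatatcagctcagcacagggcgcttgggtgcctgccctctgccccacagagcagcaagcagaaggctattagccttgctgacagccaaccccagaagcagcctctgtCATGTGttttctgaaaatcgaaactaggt
Lgals9: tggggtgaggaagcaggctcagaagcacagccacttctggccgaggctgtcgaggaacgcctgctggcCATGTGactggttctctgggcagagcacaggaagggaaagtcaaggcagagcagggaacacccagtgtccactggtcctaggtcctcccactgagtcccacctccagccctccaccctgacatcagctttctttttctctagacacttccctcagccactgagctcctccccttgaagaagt
Lgals8: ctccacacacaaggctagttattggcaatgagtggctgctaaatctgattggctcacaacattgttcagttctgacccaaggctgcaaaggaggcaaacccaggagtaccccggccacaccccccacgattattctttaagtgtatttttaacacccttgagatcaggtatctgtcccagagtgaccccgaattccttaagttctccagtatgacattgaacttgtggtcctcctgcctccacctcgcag

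Promoters with 50 further bases after the start were searched on both strands for CACGTG, for the E-box variant CACATG, for CANNTG, which includes both, and for AANNGAAA, a core bound by interferon regulatory factors. Of the 6 members 5 had a promoter entry, Lgals1 being the one without. CACGTG was in 0 of these 5 and in 9.31% of the 13071 promoters of measured genes. CACATG was in Lgals3bp and Lgals9 and in 9.36% of all promoters. In Lgals3bp it began at position -29 before the start and again at position 42 after it, and in Lgals9 at position -182. The remaining E-boxes were CAGGTG at -223 and -114 in Lgals3, and CACCTG at -75 and CAGCTG at -24 in Lgals4. Lgals8 had no match to CANNTG, which 66% of all promoters held. AANNGAAA began at position -14 in Lgals3bp and at -151, -55 and 16 in Lgals9, against 18.5% of all promoters with a match. These matches describe letters in a short window and are no measure of binding.

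The genes on either side of Lgals3bp on chromosome 11, named for their place and not by a rule, had small changes. Timp2, a metalloproteinase inhibitor, was at -0.041 ± 0.068 (SE) and Cant1, a nucleotidase of the secretory pathway, at -0.020 ± 0.043. For both the groups overlapped.

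Lgals1 encodes the prototype galectin, a small protein with a single sugar-binding domain that pairs with itself. Its relative log2 signal was -0.0041, 0.064 and 0.046 on knockdown arrays 1, 2 and 3, against 0.0020, -0.0020 and -0.034 on empty vector arrays 1, 2 and 3. Knockdown array 1 lay among the empty vector arrays, so the groups overlapped. The change was 0.047 ± 0.042 (SE), or 1.03-fold with a 95% interval of 0.966 to 1.10. Lgals1 was among the least variable genes, with a within-group SD of 0.029 that exceeded the SD of only 7.78% of genes.

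Lgals3 encodes the chimera galectin, whose sugar-binding domain carries a long flexible tail and which is a marker of macrophages. It was 0.032, 0.18 and -0.072 on knockdown arrays 1, 2 and 3, against -0.0021, 0.0021 and -0.021 on empty vector arrays 1, 2 and 3. The knockdown arrays enclosed the empty vector arrays on both sides, with the highest value on knockdown array 2. The change was 0.054 ± 0.065 (SE), or 1.04-fold (95% interval 0.935 to 1.15), and -0.013 without knockdown array 2. Lgals3 lies in the dimmer class, and 229 olfactory receptor genes, normally silent outside the nose, had medians of 0.0036, 0.14 and -0.071 on knockdown arrays 1, 2 and 3, against 0.0049, -0.022 and 0 on empty vector arrays 1, 2 and 3. Lgals3 and these receptors shared the order of the knockdown arrays, with array 2 highest and array 3 lowest. The medians of the dimmer class and Lgals4, described below, had this order as well, and Lgals9 did not. The part of this spread between the knockdown arrays in the value of Lgals3 was not tested.

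The other 3 galectins are of the tandem-repeat kind, with a pair of different sugar-binding domains joined by a linker. Lgals4, made mainly in gut epithelium, was -0.0074, 0.024 and -0.090 on knockdown arrays 1, 2 and 3, against 0.028, 0.0074 and -0.010 on empty vector arrays 1, 2 and 3. The groups overlapped, with knockdown array 3 lowest. The change was -0.033 ± 0.046 (SE), or 0.978-fold (95% interval 0.908 to 1.05), and 1.1e-04 without knockdown array 3. Some mouse strains carry Lgals6, a near-identical copy of Lgals4, and probes of the cluster may read both, so the assignment to Lgals4 is uncertain.

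Lgals8, which marks damaged endosomes and lysosomes and recruits autophagy receptors to them, was 0.049, 0.054 and 0.014 on knockdown arrays 1, 2 and 3, against -0.024, -0.014 and -0.11 on empty vector arrays 1, 2 and 3. All 3 knockdown arrays were above the empty vector arrays, by a gap of 0.028, and empty vector array 3 was the lowest. The change was 0.088 ± 0.045 (SE), or 1.06-fold (95% interval 0.989 to 1.14), and 0.058 without empty vector array 3. Larger changes, in either direction, were found in 17.8% of all genes.

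Lgals9, which acts on immune cells and also binds lysosomal glycoproteins, was 0.041, 0.021 and 0.022 on knockdown arrays 1, 2 and 3, against -0.090, -0.021 and -0.053 on empty vector arrays 1, 2 and 3. Again the knockdown arrays were above the empty vector arrays, with a gap of 0.042, and the lowest value was on empty vector array 1. The change was 0.083 ± 0.041 (SE), or 1.06-fold (95% interval 0.992 to 1.13), and 0.11 after quantile normalization. Its within-group SD of 0.026 exceeded that of 5.86% of genes. Lgals9 is in the dimmer class, which had a median of 0.071 on knockdown array 2, and its change without that array was 0.087.

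Among the 5 galectins, 4 had a change above 0 and the median was 0.054, beside a median of -6.6e-04 and quartiles of -0.041 and 0.039 over all genes. The intervals of Lgals1, Lgals3, Lgals4, Lgals8 and Lgals9 all held 0. With 1 array left out in turn, Lgals8 stayed between 0.058 and 0.11, Lgals9 between 0.065 and 0.100, and Lgals1 between 0.032 and 0.066. Lgals3 ranged from -0.013 to 0.11 and Lgals4 from -0.057 to 1.1e-04.

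**Figure D2:**
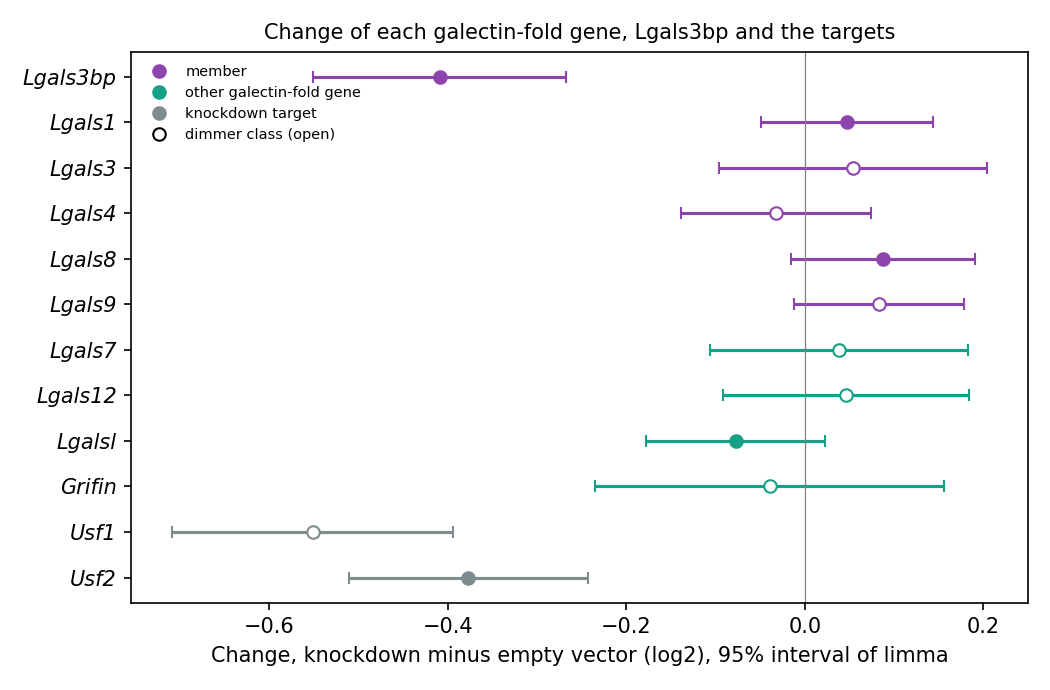
Change between knockdown and empty vector on the log2 scale (horizontal axis) with its 95% limma interval for the 6 members (purple), 4 further galectin-fold genes (green) and the targets (grey), with open circles for genes outside the brighter class. Lgals3bp, at -0.41, lies by Usf1 and Usf2, at -0.55 and -0.38, and the intervals of all galectin-fold genes hold 0.

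**Figure D3:**
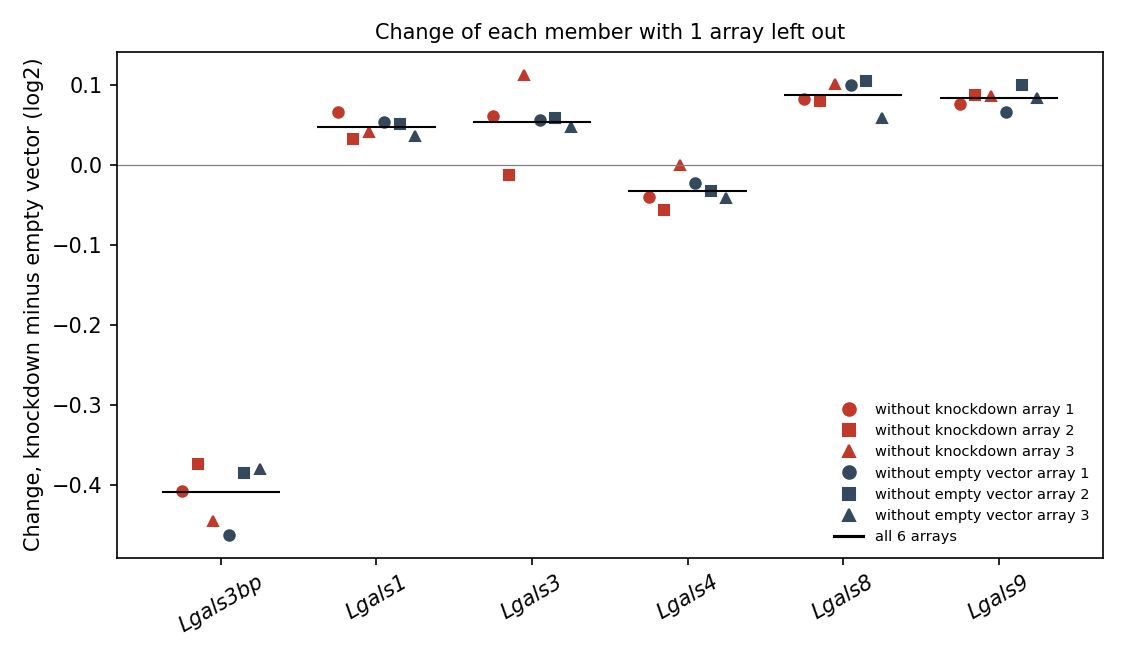
Change of each member on the log2 scale (vertical axis) with all 6 arrays (black line) and with each knockdown array (red) or empty vector array (blue) left out. Lgals3bp stays between -0.46 and -0.37 and Lgals3 is at -0.013 without knockdown array 2.

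Of 6 listed relatives with a galectin fold that are not members, 4 were measured. Limma called 0 of them, either at an adjusted p under 0.05 over all genes or at an unadjusted one. Of all genes it called 0.00603% and 4.25%, so 0 of 4 is near those shares. Lgals7, an epidermal galectin next to Lgals4 on chromosome 7, had a change of 0.038 ± 0.062 (SE), and Lgals12, a galectin of fat cells, one of 0.046 ± 0.060. Lgalsl, a galectin-related protein, was at -0.078 ± 0.043 and Grifin, a lens protein that has lost the ability to bind sugar, at -0.039 ± 0.084. Without knockdown array 2, where Lgals7, Lgals12 and Grifin read 0.18, 0.14 and 0.18, Lgals7 was at -0.028 and Lgals12 at -0.0049, while Grifin was at -0.14 with an unadjusted limma p of 0.0097. Without that array 1248 of the 16583 genes had an unadjusted p under 0.05. With array quality weights Grifin and Lgalsl also had such a p, as did 4356 of the 16583 genes. Lgals2 and Lgals6 were not analysed here.

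Over the 6 arrays, the pattern of Lgals3bp was most like that of Dtx3, Zhx2, Rab31, Tcn2 and Aldh3b1. Likeness was Pearson's r over the 6 arrays among the 4473 genes whose range was at least 50% of that of Lgals3bp, which was 0.54. The r of these 5 genes lay between 0.983 and 0.988. All the genes near the top separate the same groups of 3 arrays, which alone gives a high r, so the order among them is a description with no p. Dtx3, an E3 ubiquitin ligase of the Deltex family, was -0.10, -0.13 and -0.10 on knockdown arrays 1, 2 and 3, against 0.10, 0.19 and 0.18 on empty vector arrays 1, 2 and 3, or 0.832-fold. The homeodomain repressor Zhx2 was at 0.816-fold, the small GTPase Rab31 at 0.844-fold, the vitamin B12 carrier Tcn2 at 0.815-fold and the aldehyde dehydrogenase Aldh3b1 at 0.842-fold. Usf2 was number 9 in this order (r = 0.974) and Usf1 number 20 (r = 0.956).

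**Figure D4:**
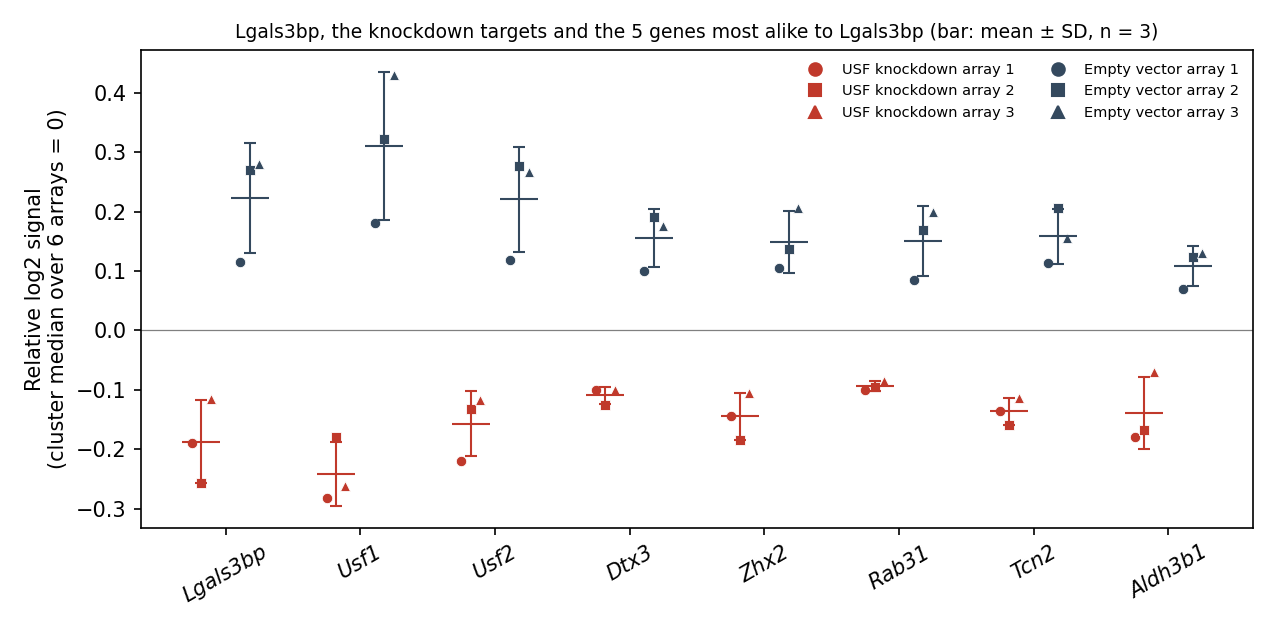
Relative log2 signal (vertical axis) of Lgals3bp, Usf1, Usf2 and the 5 genes most alike to Lgals3bp on each of the 3 knockdown arrays (red, left) and 3 empty vector arrays (blue, right), with bars for the mean ± SD. Empty vector array 1 is the lowest of its group for all 8 genes. For 5 of them this is no support, as they were picked by their r with Lgals3bp over these same arrays. Knockdown array 2 is the lowest of its group for Lgals3bp at -0.26 but the highest for Usf1 at -0.18.

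Within the empty vector group, array 1 was the lowest for Lgals3bp (0.12, against 0.27 and 0.28), for Usf1 (0.18, against 0.32 and 0.43) and for Usf2 (0.12, against 0.28 and 0.27). Over all genes, array 1 was the lowest of the empty vector arrays for 37.2%. Within the knockdown group the orders differed. Lgals3bp was lowest on array 2, at -0.26, where Usf1 had its highest knockdown value of -0.18, and both Usf1 and Usf2 were lowest on array 1, at -0.28 and -0.22.

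The genes around the galectins were described by lists, none of which had a gene past an adjusted p of 0.05 in limma. At an unadjusted p under 0.05, the 153 genes measured in these lists held 2 higher and 7 lower ones, where 1.6% of all genes were higher and 2.65% lower. The lists were written with earlier results of these data known, so nothing is read from these counts or those below. Among the glycosyltransferases that build the branched and galactose-ended glycans galectins bind, 26 measured of 30 listed, 0 were higher and 1 was lower, and the median change was -0.017. That gene was B3gnt9, a relative of the enzymes that extend such chains, at -0.13 ± 0.04 (SE). St3gal6, which caps galactose with sialic acid, was at -0.069 ± 0.042 and Mgat3, which adds a bisecting sugar, at -0.093 ± 0.063. With 1 array left out, B3gnt9 kept an unadjusted p under 0.05 in 4 of 6 fits, and Mgat3 was at -0.040 with empty vector array 3 left out and at -0.052 with knockdown array 3 left out.

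Of the cell-surface, lysosomal and matrix glycoproteins that galectins or Lgals3bp bind, 32 measured of 33 listed, 1 was higher and 0 were lower at an unadjusted p under 0.05 in limma. Of all genes 1.6% were higher and 2.65% lower, and the median change of the list was 0.018. The higher one was Lamp1, a lysosomal membrane glycoprotein rich in galectin-binding chains, at 0.15 ± 0.04 (SE). Its values were 0.052, 0.044 and 0.11 on knockdown arrays 1, 2 and 3, against -0.044, -0.11 and -0.096 on empty vector arrays 1, 2 and 3. The groups did not overlap, as for 4.33% of all genes with knockdown above. On the same 3 knockdown arrays Lgals3bp lay below, and this glycoprotein above, the empty vector arrays. Col6a2, a chain of the collagen that Lgals3bp binds, was at 0.18 ± 0.09 with 0.35 on knockdown array 2, and at 0.070 without that array. The collagen-binding integrin subunit Itga1 was at -0.14 ± 0.08, with -0.28 on knockdown array 2, and at -0.056 without that array.

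Of the genes of the response to damaged lysosomes and of mTORC1 control, in which Lgals3, Lgals8 and Lgals9 take part, 26 were measured of 27 listed. At an unadjusted p under 0.05 in limma 1 was higher and 2 were lower, beside 1.6% and 2.65% of all genes, and the median was 0.0080. The lower ones were Pdcd6, a calcium sensor that brings membrane repair proteins to damaged lysosomes, at -0.23 ± 0.04 (SE, 0.852-fold), and the GTPase Rragb at -0.49 ± 0.10 (0.710-fold). Pdcd6 was -0.082, -0.11 and -0.10 on knockdown arrays 1, 2 and 3, against 0.14, 0.082 and 0.18 on empty vector arrays 1, 2 and 3. Its groups did not overlap, as for 5.95% of all genes with knockdown below. The higher one was Lamtor1, which anchors such GTPases to the lysosome, at 0.18 ± 0.05. The adjusted p over all genes in limma was 0.603 for Pdcd6 and 0.759 for Rragb. Rragb read -0.57 on knockdown array 2, against -0.26 and -0.13 on knockdown arrays 1 and 3. Its change was -0.37 without knockdown array 2.

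Interferon-stimulated genes and their regulators were listed because Lgals3bp and Lgals9 respond to interferon. Of 30 listed 22 were measured, 8 of them in the brighter class. The median change of all genes was -6.6e-04, with quartiles of -0.041 and 0.039. Of the 22 listed genes measured, 0 had an unadjusted p under 0.05 in limma in either direction. Among them 18 had a change above 0, and the list median was 0.012. Those with the smallest p were Oasl2, a homologue of an antiviral enzyme (0.095 ± 0.043, SE), the transcription factor Irf7 (0.16 ± 0.07) and the RNA sensor Ddx58 (0.13 ± 0.06). Lgals3bp lay below and Lgals9 above the empty vector arrays, so the changes of these interferon-responsive members had opposite signs. Irf7 was at 0.086 without knockdown array 2 and at 0.24 without knockdown array 3 (unadjusted limma p 0.0034), and Ddx58 was at 0.19 without knockdown array 2 (unadjusted limma p 0.0035). For Irf7 and for Ddx58 such a p was under 0.05 in 1 of 6 fits with an array left out. Of all genes, 1248 had one without knockdown array 2 and 1228 without knockdown array 3. With array quality weights Oasl2, Irf7 and Ddx58 each had an unadjusted p under 0.05. So did 4356 of the 16583 genes in that fit, against 705 in the main fit.

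Markers of other cells were examined because Lgals3, Lgals1 and Lgals4 mark macrophages, mesenchymal cells and gut epithelium. The macrophage and blood cell markers had 9 measured of 14 listed, a median change of 0.057 and 9 changes above 0, and medians of 0.074, 0.077 and -0.022 on knockdown arrays 1, 2 and 3 against the empty vector mean. All 9 lie outside the brighter class. On the same arrays the dimmer class had medians of -0.0047, 0.071 and -0.023 in the deposited values, which are relative to each cluster's median. The median change over all genes was -6.6e-04. None of the 9 had an unadjusted p under 0.05 in limma, Cd14, Ptprc and Cd68 having the smallest with changes of 0.079 ± 0.052 (SE), 0.057 ± 0.041 and 0.054 ± 0.050. Cd68 was at 0.026 without knockdown array 1, and Cd14 was at 0.12 without empty vector array 1, where its unadjusted limma p was 0.0452. Without empty vector array 1, 779 of the 16583 genes had such a p under 0.05. With array quality weights Cd14, Ptprc and Cd68 each had one, as did 4356 of the 16583 genes. The fibroblast markers, 8 measured of 11 listed, had a median of 0.049, with 6 changes above 0, and those of the epithelium, 10 of 10, one of -0.0083 with 5 above 0. Acta2, a smooth muscle actin, was the one with an unadjusted p under 0.05, at -0.22 ± 0.06. Pdgfrb was at 0.11 ± 0.06 and Dcn at -0.072 ± 0.061 among the fibroblast genes, and Epcam, Cdx2 and Cldn4 at 0.074 ± 0.046, 0.076 ± 0.069 and 0.084 ± 0.082 among the epithelial genes. Without knockdown array 2 Pdgfrb was at 0.068 and Cdx2 at 0.032, and Dcn was at -0.031 without empty vector array 2 and -0.13 without empty vector array 3. On knockdown arrays 1, 2 and 3 the fibroblast medians were 0.027, 0.23 and -0.12 and the epithelial ones -0.080, 0.092 and -0.050. The part of any such cells in the galectin values was not tested.

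Of the genes of sympathetic neuroblastoma identity, 17 measured of 20 listed, limma counted 3 with lower signal and 0 with higher signal at an unadjusted p under 0.05, and the median was -0.031. Over all genes the shares were 2.65% lower and 1.6% higher. They were Dbh, the enzyme that makes noradrenaline (-0.25 ± 0.05, SE), the neuronal RNA-binding protein Elavl4 (-0.13 ± 0.04) and the granule protein Chgb (-0.15 ± 0.05). With 1 array left out, Dbh kept such a p in 6 of 6 fits, and Elavl4 and Chgb in 3 of 6 each. Whether the cells' identity has a part in the value of Lgals3bp was not tested.

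**Figure D5:**
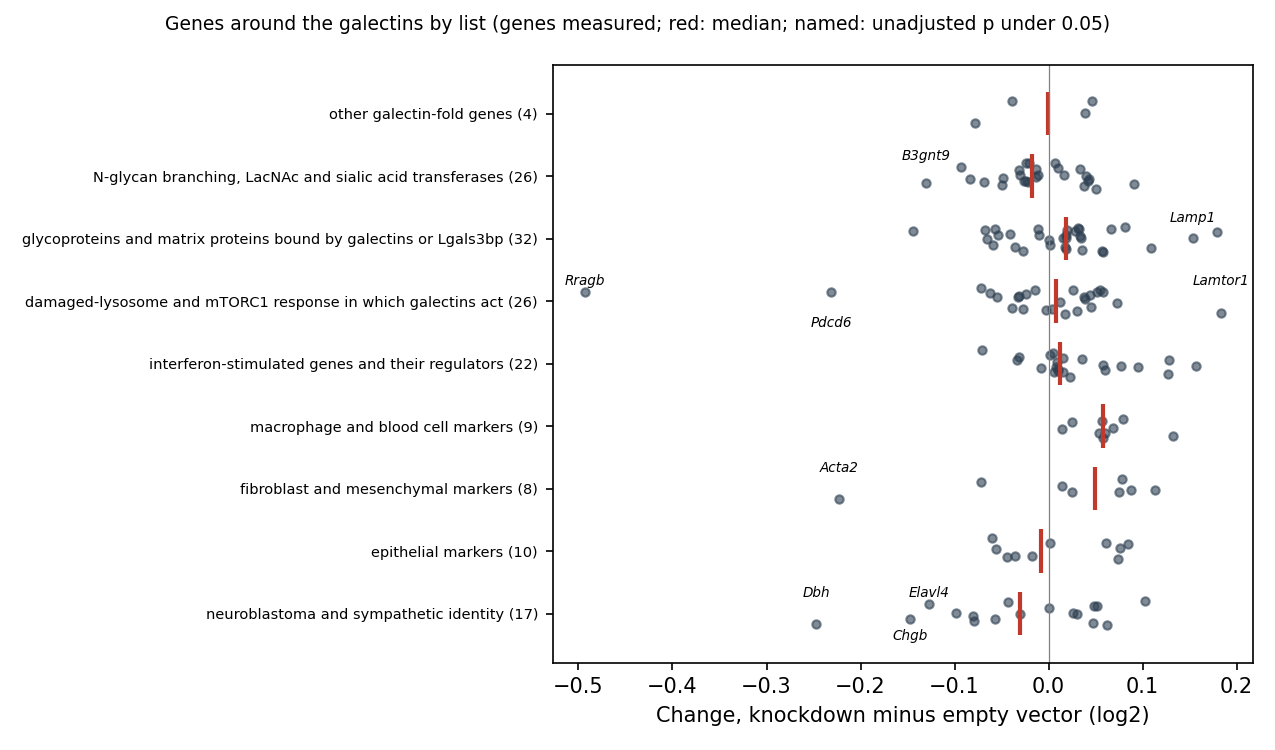
Change between knockdown and empty vector on the log2 scale (horizontal axis) of each measured gene (dots) in the 9 lists around the galectins, with the number measured in brackets and the list median in red. Named genes have an unadjusted p under 0.05 in limma, and the lowest is Rragb at -0.49.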

How the data were processed

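The authors deposited 1 table of 22891 transcript clusters on 6 Affymetrix Mouse Gene ST arrays, with values read here as log2 and relative to each cluster's median over the arrays. RNA was labelled with Ambion and Affymetrix kits, per the labels' protocols. No source used here states the background correction, the normalization between arrays or the filter. The log2 scale itself was inferred. Subtracting 2 arrays left multiples of the spacing that 32-bit numbers have between 4 and 8, or between 8 and 16, within 0.05 of that spacing. This is where log2 array signals usually lie, and it set the brightness classes. Values under 0.001 in size were left out of this check, and a few clusters can be placed wrongly. The fold changes printed are computed here as powers of 2.

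Genes were named from the platform annotation, which gave 18087 clusters 1 symbol, 1145 several and left 3659 unnamed. Clusters of 1 gene were averaged to 16583 genes, and no other columns of samples were present (0). Knockdown minus empty vector was fitted with lmFit and eBayes in limma 3.58.1 (R 4.3.3), 3 arrays per group, with Benjamini-Hochberg adjustment over all genes at 0.05. The prior and residual degrees of freedom were 3.79 and 4, and the number of arrays limits the precision. Intervals are 95% limma intervals. The fit was tested on simulated data. Motifs and figures were made with Python 3.11.15 and matplotlib 3.10.9. Promoters came from RefSeq.

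The members, the lists and the tests were chosen with earlier results of these data known. The named genes are the members, the targets, the measured galectin-fold relatives, up to 3 genes with the smallest p of each other list, and the 5 genes most alike to Lgals3bp. Groups came from the sample titles. Same-numbered arrays deviated together little (r = 0.0031, 0.082 and 0.036), and pairs with different numbers had r of -0.094 to 0.053. These r values do not settle whether the arrays pair. The titles do not say that they do, so the main fit has no block. Alternatives were quantile normalization, median centring, the brighter class alone, a replicate block, array weights, robust variance, clusters not averaged and each array left out.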

Additional observations from a re-analysis of the deposited data

How the results depend on the processing

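Lgals3bp was picked by this contrast, so its keeping a lower value over the alternatives is a description and no support. Its change could not move from -0.41 with the brighter class alone, the replicate block, robust variance or the first cluster of each gene. Over all 13 alternatives its change lay between -0.46 and -0.37 and its limma adjusted p over all genes between 6.3e-04 (array quality weights) and 1.00. It was under 0.05 with those weights alone, where 1111 genes passed and knockdown array 1 had a weight of 33.0 against 0.136 and 0.441 for arrays 2 and 3. In that fit Usf1 and Usf2 also passed (changes of -0.62 and -0.46), Lgals1 was at 0.012 and Lgals7 at -0.023. The fit with the replicate block left the change of Lgals3bp at -0.41 (adjusted p 0.832), and 0 genes passed the threshold over all genes, where 636 had an unadjusted p under 0.05. As far as the titles say, the same-numbered arrays share only a number. Leaving out 1 array gave 0 to 1 genes past the threshold (0 without any empty vector array or knockdown array 1) and 369 to 1248 at an unadjusted p under 0.05. Members at an unadjusted p under 0.05 numbered 2 after quantile normalization (Lgals3bp and Lgals9, with Lgals9 at 0.11), 2 in the brighter class alone (Lgals3bp and Lgals8), 3 with array weights and 1 whenever 1 array was left out. Of all 16583 genes, 705 reached such a p in the main fit, 897 (400 of them higher) after quantile normalization and 4356 with array weights. The fit of the brighter class alone held only the 7318 genes wholly in that class and genes with part of their clusters there. It included 3 of the 6 members, and 570 of its genes reached such a p. Nothing is read from the member counts. Genes of the surrounding lists at an unadjusted p under 0.05 numbered 5 higher after quantile normalization, 19 higher and 26 lower with array weights, and 2 to 9 higher and 4 to 11 lower with 1 array left out. With 1 array left out, Lgals7 ranged from -0.028 to 0.074, Lgals12 from -0.0049 to 0.10, Grifin from -0.14 to 0.022 and Cldn4 from -0.017 to 0.15, and each turned its sign. Grifin was at 0.0026 without knockdown array 1. The cause of these shifts was not tested. The levels of the 3 members outside the brighter class are unknown, and so is the smallest change the probes could show.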
